A study of Mus musculus with 16 samples.

Results

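The Rab GTPases are small GTP-binding proteins that mark membranes and steer vesicles between them. The genes described here are those whose symbol is Rab followed by a number, with an optional letter and digit, and that reached 1 CPM (counts scaled to the normalised library totals) in at least 4 of 16 libraries. Of 55359 genes in the counts, 59 carried such a symbol and 42 met the level rule. They comprised 8 early endosome genes, 8 genes of late endosomes and lysosomes, 9 of recycling endosomes, 9 of the endoplasmic reticulum (ER) and Golgi, 4 of secretory granules and 4 others.

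Poly(A) RNA was sequenced from wild-type mouse MPI-2 cells, a self-renewing alveolar-like macrophage line that was cultured with GM-CSF, serum, penicillin and streptomycin in every group. The 4 groups were cells exposed to Mycobacterium abscessus at day 1, uninfected cells at day 1, exposed cells at day 5 and uninfected cells at day 5, with 4 biological replicates each. The line is 1 cell line taken over a wide range of passages, and the bacterial strain, the dose and how many cells took up bacteria are not given in the sources used here. The series is about senescence of cells during long-lasting intracellular infection. Whether the replicates came from separate cultures is not stated beyond the word biological, so p-values measure the spread between these samples. That spread was pooled per gene over all 4 groups. A day 5 exposure p-value thus draws on the day 1 groups too, and a day 1 p-value on exposed day 5, the most variable group.

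A Rab protein cycles between a GDP-bound form, which a GDP dissociation inhibitor (GDI) keeps soluble, and a GTP-bound form on a membrane, which recruits effectors. Guanine nucleotide exchange factors (GEFs) switch it on and GTPase-activating proteins (GAPs) switch it off. In macrophages the passage of a phagosome from Rab5-bearing early endosomes to Rab7-bearing late endosomes leads to fusion with lysosomes, a step that pathogenic mycobacteria are known to delay.

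Library totals ran from 46154875 to 81995629 counts. All 7 alveolar macrophage markers and all 7 general macrophage markers reached 1 CPM in at least 4 libraries, and none of 5 T and NK cell or 4 B cell markers did. Of the other lists, 4 of 6 neutrophil markers (Ly6g and Elane stayed below), 2 of 6 epithelial (not Epcam, Krt8, Krt18 or Sftpc), 1 of 5 fibroblast (Col1a2 was at 0 counts) and 2 of 4 endothelial markers did. Several summed marker levels moved with exposure, in both directions. Alveolar macrophage markers, mostly Chil3, summed to 9788 to 12300 CPM in exposed and 14720 to 16280 CPM in uninfected libraries at day 1. At day 5 they summed to 7500 to 9696 CPM in exposed and 17800 to 25110 CPM in uninfected libraries. General macrophage markers, mostly Lyz2, went the other way. Their sums were 5374 to 6258 CPM in exposed and 3365 to 3685 CPM in uninfected libraries at day 1. At day 5 they were 7124 to 12650 CPM in exposed and 3581 to 4001 CPM in uninfected libraries. A sum led by 1 gene does not give the direction of the other markers. The neutrophil list, mostly S100a8, summed to 947 to 1208 CPM in exposed and 515 to 599 CPM in uninfected libraries at day 1. At day 5 its sums overlapped. Epithelial markers, mostly Cdh1, summed to 14.8 to 24.9 CPM in exposed and 72.7 to 77.1 CPM in uninfected libraries at day 5, and endothelial markers to 6.18 to 9.23 CPM in exposed and 2.99 to 3.62 CPM in uninfected libraries at that day. At day 1 the epithelial sums were 34.6 to 42.5 CPM in exposed and 62.7 to 67.7 CPM in uninfected libraries. Fibroblast markers, mostly Pdgfra, overlapped at day 1 and summed to 9.75 to 13.2 CPM in exposed and 20.4 to 22.4 CPM in uninfected libraries at day 5. At day 5 the mitochondrial share of counts was 0.969% ± 0.201 in exposed cells, against 1.71% ± 0.126 in uninfected cells (SD, n = 4 each). The exposed day 5 libraries also varied most. Their median SD over tested genes was 0.299 on the log2 CPM scale, against 0.113 to 0.148 in the other 3 groups. Replicate 3 was the lowest of the 4 for 27 of the 42 Rab genes, and replicate 2 was the highest for 20. Both carry a sample code of another series. Of the exposed day 1 libraries, replicate 4 was the lowest for 23 of 42. The part of these features in the results below was not tested. In bulk RNA, fewer cells of a type and less RNA per cell cannot be told apart.

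All 59 Rab-named genes are accounted for as follows. Rab4a, Rab36 and Rab42 were listed at 0 counts in all 16 libraries, and Rab3c, Rab9b and Rab39b had 6, 1 and 2 counts in all. The 0 of Rab4a may not describe its expression, since the annotation release and the handling of shared reads are not given in the sources used here. Rab3a, Rab3b, Rab6b, Rab17, Rab26, Rab27b, Rab33a and Rab39 held between 13 and 150 counts in all. The rule used the fourth-highest CPM of a gene. It was 1.11 for Rab4b, 1.17 for Rab15 and 1.66 for Rab37, the 3 just inside, and 0.814 for Rab25, 0.496 for Rab30 and 0.416 for Rab40b, the 3 just outside. Rab15 passed through its exposed day 5 libraries alone and so had to differ, Rab37 passed in every group but exposed day 5, and Rab4b in every group but uninfected day 1. The other 39 reached 1 CPM in at least 1 library of each group.

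On a per-length scale, CPM per kb of merged exon, Rab7 and Rab5c stood highest of the 42. Rab7, the GTPase of late endosomes, had 201 CPM per kb in exposed day 5 cells and 198 in uninfected day 5 cells. Rab5c, of early endosomes, had 155 in exposed day 5 cells and 205 in uninfected day 5 cells, and the means of the pair differed by more than the SD of either gene in exposed cells and by less than it in uninfected cells. Rab1b and Rab1a, of ER-to-Golgi traffic, came next in uninfected cells, and Rab15 was the lowest in every group but exposed day 5, where Rab37 was.

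Exposure was first compared within each day. At day 1, 8 of the 42 Rab genes were higher and 1 was lower in exposed cells than in uninfected cells (edgeR quasi-likelihood test, Benjamini-Hochberg adjusted p under 0.05 over 17190 genes). Of all genes tested, 13.4% were higher and 10.5% lower, and without exposed day 5 replicate 3 the number of Rab genes lower was 4. At day 5, 16 Rab genes were higher and 14 lower, against 28.6% higher and 28.4% lower of all genes tested. The median log2 fold change of the 42 genes was 0.07 at both days, against 0.03 at day 1 and 0.02 at day 5 over all genes. Without the 3 genes that passed the level rule in some groups only, the counts were 8 higher and 1 lower of 39 at day 1 and 15 higher and 13 lower at day 5. Only Rab38 was called at day 1 with a fold of at least 1.5, against 7.93% of all genes higher by that much. At day 5 there were 6 such genes higher and 3 lower, against 20.1% and 16.4% of all genes, and 5 higher and 2 lower of the 39. At day 1 the exposed and uninfected libraries did not overlap for 10 Rab genes higher and 9 lower. The share over all genes, in either direction, was 39.3%. At day 5 the libraries did not overlap for 12 higher and 11 lower, against 46.6% of all genes. The 12 include Rab15, which had to lie apart because it passed the level rule through exposed day 5 alone. The 11 include Rab37, which passed in every group but exposed day 5.

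**Figure D1:**
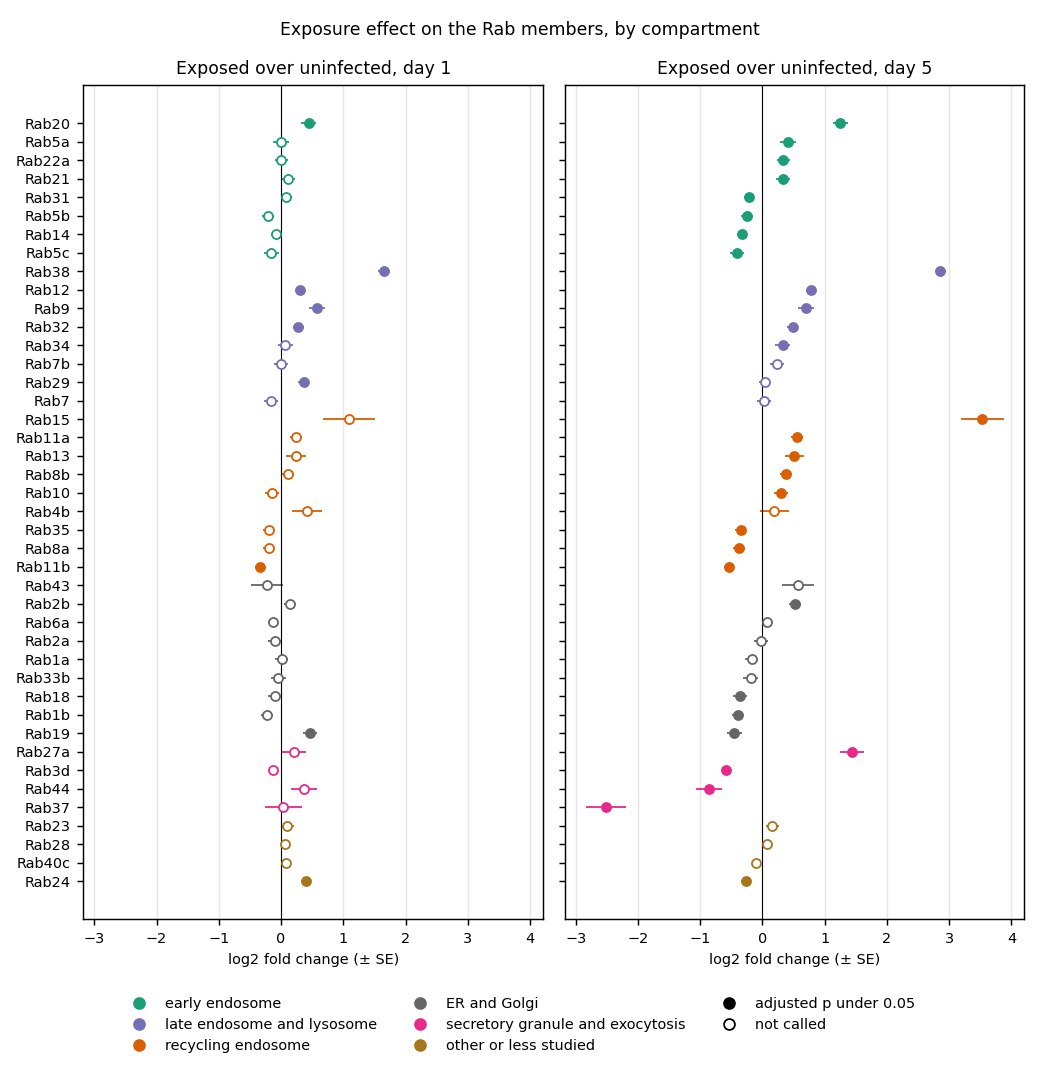
Log2 fold change (± SE, from edgeR) of the 42 Rab genes in exposed over uninfected cells at day 1 (left) and day 5 (right), n = 4 libraries a group, coloured by compartment and filled where the adjusted p was under 0.05. Late endosome genes lie at or above 0 at day 5, with Rab38 at 2.86, while early and recycling endosome genes lie on both sides of 0.

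Among compartments with more than 1 call on a day, only late endosomes and lysosomes had all of them in 1 direction. At day 1 every other compartment had at most 1 call. There 5 of 8 genes were higher and none lower at day 1, against 13.4% higher and 10.5% lower of all genes. At day 5, 5 were higher and none lower, against 28.6% and 28.4% of all genes. The median log2 fold change of the 8 genes was 0.29 at day 1 and 0.40 at day 5. These are counts over 8 genes chosen with earlier results known and carry no test of the compartment itself. Summed over the 8 genes, CPM ran from 939 to 1246 in exposed day 5 libraries and from 826 to 900 in uninfected day 5 libraries, without overlap. At day 1 the sums ran from 874 to 1024 CPM in exposed libraries and from 912 to 1016 CPM in uninfected libraries, and they overlapped. Rab7, which was not called on either day, was the largest part of these sums. At day 5 the sums of secretory genes did not overlap either, at 138.6 to 185.6 CPM in exposed and 246.4 to 264.5 CPM in uninfected libraries. Nor did those of the other genes outside the named compartments, at 144.2 to 150.7 CPM in exposed and 155.9 to 166.0 CPM in uninfected libraries.

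Rab38 (ENSMUSG00000030559.9) serves lysosome-related organelles such as melanosomes. It had 22.6, 21.7, 25.4 and 21.9 CPM in exposed day 1 libraries 1 to 4 and 7.51, 7.73, 6.5 and 7.4 CPM in uninfected day 1 libraries. At day 5 it had 63.5, 59.2, 61.6 and 50.2 CPM in exposed libraries and 7.73, 7.4, 8.23 and 8.93 CPM in uninfected libraries. Every exposed library lay above every uninfected one on both days, and the uninfected libraries of the 2 days overlapped. The change was 3.14-fold at day 1 (log2 fold change 1.65, SE 0.093, adjusted p = 1.89e-10) and 7.26-fold at day 5 (log2 fold change 2.86, SE 0.095, adjusted p = 6.43e-14). The exposure effect was larger at day 5 than at day 1 by 1.21 on the log2 scale (adjusted p = 1.2e-06).

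Rab32, the closest relative of Rab38 and likewise a GTPase of lysosome-related organelles, was far more abundant and moved less. It had 201, 244, 210 and 200 CPM in exposed day 5 libraries and 154, 140, 164 and 154 CPM in uninfected day 5 libraries (log2 fold change 0.48, SE 0.086, adjusted p = 8.43e-05). The groups did not overlap. At day 1 it had 198, 211, 222 and 184 CPM in exposed libraries and 168, 183, 160 and 162 CPM in uninfected libraries (log2 fold change 0.28, adjusted p = 0.0257). That day 1 call ended without exposed day 1 replicate 2 or 3 or without uninfected day 1 replicate 1, 3 or 4. The adjusted p then ran from 0.0633 to 0.0997. RLE size factors, another scaling, and a fit without the filter on low counts did not make the call either.

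Rab12, which directs cargo from recycling endosomes to lysosomes, had 51.5, 60.8, 47.6 and 64.5 CPM in exposed day 5 libraries and 32.2, 33.3, 32 and 33.6 CPM in uninfected day 5 libraries. The lowest exposed library stood above the highest uninfected one (log2 fold change 0.78, SE 0.082, adjusted p = 1.52e-07). At day 1 it had 35.5, 34.3, 34.9 and 36 CPM in exposed libraries and 29.4, 27.8, 29.1 and 27.4 CPM in uninfected libraries (log2 fold change 0.31, adjusted p = 0.0102), a call that a fit without the filter on low counts did not make (adjusted p = 0.0529). Its exposure effect was larger at day 5, by 0.47 (adjusted p = 0.00392).

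Rab9, of transport from late endosomes back to the Golgi, had 62.3, 70.8, 73.3 and 72.5 CPM in exposed day 1 libraries and 47.5, 51.1, 45.6 and 42.5 CPM in uninfected day 1 libraries (log2 fold change 0.58, adjusted p = 0.00351). At day 5 it had 84.1, 98.8, 119 and 70.5 CPM in exposed libraries and 52.4, 51.5, 55.7 and 70.5 CPM in uninfected libraries (log2 fold change 0.70, adjusted p = 0.000142). The lowest exposed and highest uninfected day 5 libraries, replicate 4 of each group, nearly met. Rab29, which recruits the kinase LRRK2 to lysosomes, was higher at day 1 with 52.6, 51.4, 47.3 and 43.8 CPM in exposed libraries and 37.5, 41.1, 37.1 and 36.3 CPM in uninfected libraries (log2 fold change 0.36, adjusted p = 0.00707). At day 5 its groups overlapped, at 39 to 51.4 CPM in exposed and 38.9 to 45.5 CPM in uninfected libraries (log2 fold change 0.04, adjusted p = 0.736). The difference between its 2 exposure effects missed the threshold (log2 difference -0.32, adjusted p = 0.0551).

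Rab7 itself had 472, 655, 412 and 563 CPM in exposed day 5 libraries and 521, 500, 543 and 506 CPM in uninfected day 5 libraries. The exposed libraries spread to both sides of the uninfected ones (log2 fold change 0.02, SE 0.12, adjusted p = 0.884). At day 1 the value was -0.17 (adjusted p = 0.319). Rab7b, a relative that acts between late endosomes and the Golgi, averaged 57.7 ± 12.4 CPM in exposed cells and 49.3 ± 1.39 CPM in uninfected cells at day 5 (SD, n = 4 each), with an edgeR adjusted p of 0.0893. Rab34, which positions lysosomes, had 5.95, 6.06, 5.39 and 5.76 CPM in exposed day 5 libraries and 4.75, 5.31, 4.08 and 4.4 CPM in uninfected day 5 libraries (log2 fold change 0.32, adjusted p = 0.0369). This call ended without exposed day 1 replicate 3 or exposed day 5 replicate 1, 2 or 4. It also ended without uninfected day 5 replicate 1, 3 or 4. The adjusted p over these fits ran from 0.0533 to 0.119. With the replicate number as a block the call ended too (adjusted p = 0.057). It was not made without the filter on low counts or on the libraries of the 2 groups alone either.

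**Figure D2:**
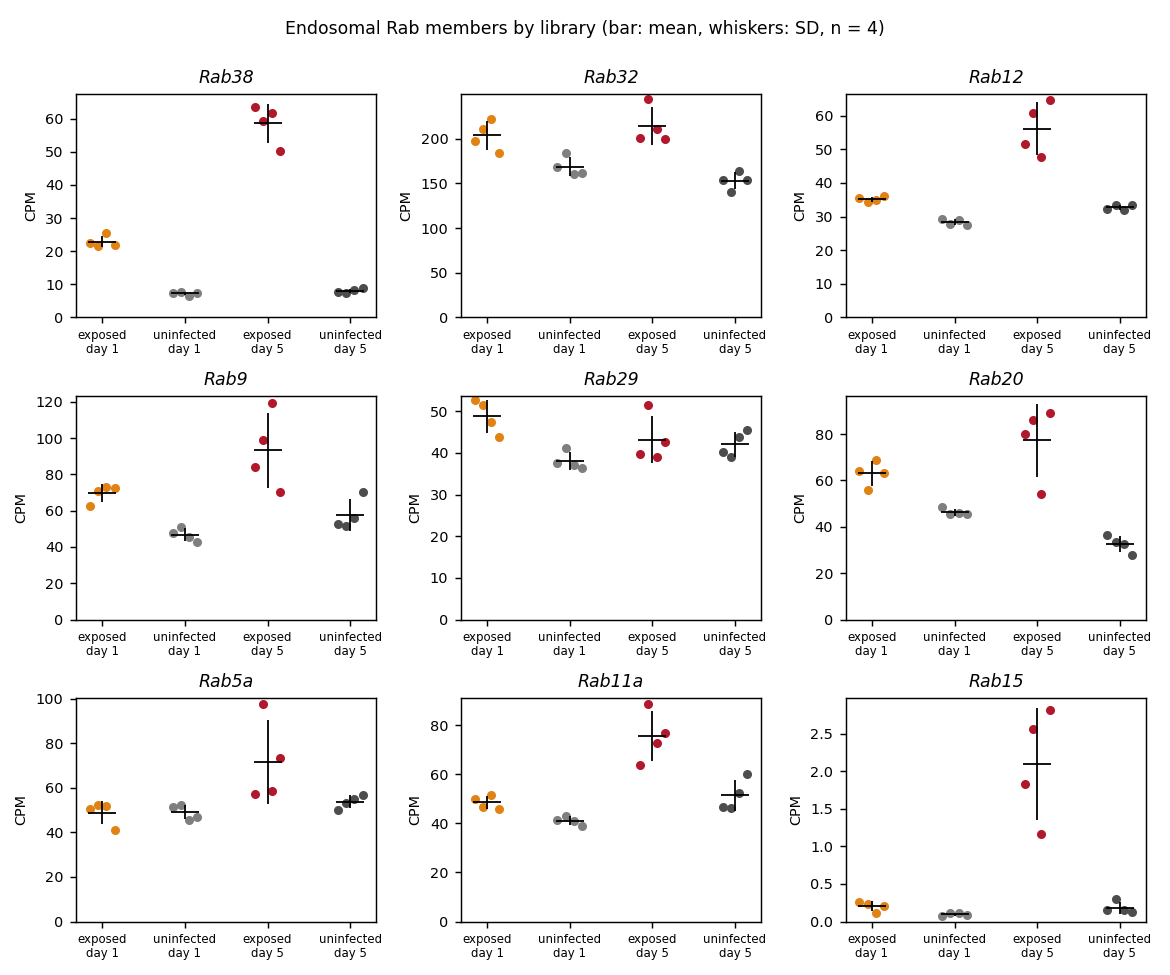
CPM of 9 endosomal Rab genes in each of the 16 libraries, with the mean (bar) and SD (whiskers) of the 4 libraries of each group. Exposed and uninfected day 5 libraries of Rab38, Rab32, Rab12, Rab20 and Rab11a do not overlap, and those of Rab29 do. Rab15 met the level rule only through exposed day 5, so its day 5 groups had to lie apart.

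Early endosome genes split at day 5. Of the 8, 4 were higher and 4 lower in exposed cells, against 28.6% and 28.4% of all genes, and the median over the 8 was 0.06 on the log2 scale. At day 1 Rab20 was higher and the other 7 did not pass the test. The summed CPM of the 8 genes ran from 834 to 1245 in exposed and from 1130 to 1209 in uninfected day 5 libraries.

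Rab20 (ENSMUSG00000031504.7), which acts in the maturation of macrophage phagosomes, had 64.2, 56.1, 68.7 and 63.1 CPM in exposed day 1 libraries and 48.6, 45.3, 46 and 45.5 CPM in uninfected day 1 libraries (log2 fold change 0.44, adjusted p = 0.0117). At day 5 it had 80.1, 86, 54.3 and 89 CPM in exposed libraries and 36.4, 33.5, 32.6 and 27.7 CPM in uninfected libraries, a 2.38-fold difference (log2 fold change 1.25, SE 0.12, adjusted p = 5.29e-08). The groups were apart on both days, and replicate 3 was the lowest of the exposed day 5 libraries. The gap widened by 0.81 on the log2 scale between days (adjusted p = 0.00114), and the uninfected cells themselves were lower at day 5 than at day 1 (log2 fold change -0.51, adjusted p = 0.006). An opposite-strand transcript covers 25.6% of its exon bases in GENCODE M21, and the deposited counts are of the strand-specific kind.

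The promoter of Rab20 is shown because it had the largest change among the early endosome genes. Promoter windows, from 250 bases before to 50 after the start site, were given for 36 of the 42 genes by RefSeq on GRCm38.p6, and motifs were searched in them on both strands. The Rab20 window lies on chr8:11478591-11478890 (minus strand), and its capitals mark an E-box (CACGTG) whose first base is at -46 from the start site.
Rab20: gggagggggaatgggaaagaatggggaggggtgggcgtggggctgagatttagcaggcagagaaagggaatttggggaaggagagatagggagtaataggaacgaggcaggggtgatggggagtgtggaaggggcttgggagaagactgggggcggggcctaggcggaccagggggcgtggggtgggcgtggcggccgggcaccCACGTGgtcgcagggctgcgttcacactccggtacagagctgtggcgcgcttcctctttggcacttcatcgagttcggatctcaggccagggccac

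An E-box was found in 5 of the 36 windows (Rab5a, Rab20, Rab21, Rab23 and Rab24), 13.9% of them, and in 7.24% of 27025 promoters. A gamma-activated site (TTCNNNGAA) was found in 3 of 36 (8.33%, against 8.47% of all promoters), and a kappa-B match in 2 (5.56%, against 8.18%). An interferon-stimulated response element (TTTC and TTTC with any 2 bases between) was found in 1 (2.78%, against 3.49%) and an AP-1 match (TGANTCA) in 1 (2.78%, against 7.93%). The kappa-B pattern can overlap the others, and a match describes the letters of a window only. Only windows with a match are printed here. Among other genes higher at day 5, the windows of Rab8b, Rab9, Rab12, Rab15, Rab27a and Rab32 held none of these motifs. No window was given for Rab38.

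The 3 Rab5 genes encode close isoforms of the GTPase that drives fusion of early endosomes, and they did not move together. Rab5a (ENSMUSG00000017831.9) had 57.2, 97.4, 58.5 and 73.4 CPM in exposed day 5 libraries and 50, 53, 54.9 and 56.9 CPM in uninfected day 5 libraries (log2 fold change 0.42, adjusted p = 0.0101). Replicate 2 was the highest, and without it the log2 fold change was 0.23 (adjusted p = 0.0506). Rab5c had 313, 410, 257 and 377 CPM in exposed day 5 libraries and 445, 453, 474 and 427 CPM in uninfected day 5 libraries (log2 fold change -0.41, adjusted p = 0.00467). Rab5c was thus lower in each exposed library, with replicate 3 the lowest.

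The Rab5a window, shown because it is the Rab5 gene that was higher, lies on chr17:53478984-53479283 (plus strand). Capitals mark E-boxes at -235 and -95.
Rab5a: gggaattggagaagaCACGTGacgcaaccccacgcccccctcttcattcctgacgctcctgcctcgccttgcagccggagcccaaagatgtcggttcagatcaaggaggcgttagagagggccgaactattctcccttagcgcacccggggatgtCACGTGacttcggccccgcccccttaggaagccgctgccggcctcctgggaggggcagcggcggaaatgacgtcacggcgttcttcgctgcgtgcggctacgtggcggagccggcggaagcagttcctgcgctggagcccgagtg

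Rab5b had 122, 156, 106 and 132 CPM in exposed day 5 libraries and 148, 145, 165 and 153 CPM in uninfected day 5 libraries, and the groups overlapped (log2 fold change -0.24, adjusted p = 0.0441). Its call was not made by DESeq2, another test, or with RLE size factors, another scaling. Nor was it made without the filter on low counts or on the libraries of the 2 groups alone. The call did not hold with each library kept out in turn. It ended without exposed day 1 replicate 1, exposed day 5 replicate 1, 3 or 4, uninfected day 1 replicate 1, 3 or 4, or uninfected day 5 replicate 1, 3 or 4, with adjusted p from 0.0505 to 0.131 and a log2 fold change of -0.16 without exposed day 5 replicate 3.

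Rab14, which links the Golgi and early endosomes, was lower, with 227, 223, 182 and 232 CPM in exposed day 5 libraries and 272, 275, 274 and 266 CPM in uninfected day 5 libraries (log2 fold change -0.33, adjusted p = 0.00187). Rab22a, of early endosome and recycling traffic, was higher at 77.3 ± 14.1 CPM in exposed cells and 61.3 ± 3.33 CPM in uninfected cells at day 5 (SD, n = 4 each; edgeR log2 fold change 0.34, adjusted p = 0.00734). Its groups overlapped, since exposed replicate 3 had 58.2 CPM. Rab21, an early endosome GTPase known for integrin traffic, had 114, 129, 78.8 and 138 CPM in exposed libraries and 92.5, 92.3, 92.7 and 88.5 CPM in uninfected libraries at day 5 (log2 fold change 0.33, adjusted p = 0.0206). Its groups overlapped too, and the call ended without exposed day 5 replicate 2 (adjusted p = 0.061) or replicate 4 (adjusted p = 0.0979). It was not made on the libraries of the 2 groups alone either.

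Rab31, of transport between the trans-Golgi and endosomes, had 43.9, 56, 39.5 and 47.9 CPM in exposed libraries and 55, 53, 56.5 and 53.1 CPM in uninfected libraries at day 5 (log2 fold change -0.22, adjusted p = 0.0416). The groups overlapped. The call ended without exposed day 5 replicate 1, 3 or 4, uninfected day 1 replicate 1 or 3, or any 1 of the 4 uninfected day 5 libraries, with adjusted p from 0.0502 to 0.13 and a log2 fold change of -0.14 without exposed day 5 replicate 3. Nor was it made by DESeq2, with RLE size factors, without the filter on low counts or on the libraries of the 2 groups alone.

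Recycling endosome genes also moved both ways. At day 5, 5 of 9 were higher, 3 were lower and Rab4b did not pass the test, against 28.6% higher and 28.4% lower of all genes. The 5 include Rab15, which met the level rule only through exposed day 5. At day 1 Rab11b was lower and the other 8 did not pass. The median log2 fold change of the 9 was 0.11 at day 1 and 0.30 at day 5. Their summed CPM ran from 531 to 752 in exposed and from 638 to 672 in uninfected day 5 libraries.

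Rab11a and Rab11b, the main GTPases of the recycling endosome, went apart. Rab11a (ENSMUSG00000004771.13) had 63.9, 88.5, 72.9 and 76.6 CPM in exposed day 5 libraries and 46.8, 46.2, 52.5 and 60 CPM in uninfected day 5 libraries (log2 fold change 0.56, SE 0.096, adjusted p = 6.43e-05). Rab11b had 94.5, 79.9, 68 and 86.9 CPM in exposed day 5 libraries and 117, 119, 123 and 119 CPM in uninfected day 5 libraries (log2 fold change -0.54, SE 0.083, adjusted p = 1.71e-05). Neither pair of groups overlapped. At day 1 Rab11b had 103, 105, 109 and 99.9 CPM in exposed and 126, 136, 128 and 136 CPM in uninfected libraries (log2 fold change -0.33, adjusted p = 0.00681), while Rab11a missed the threshold at 0.24 (adjusted p = 0.0751).

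The Rab11a window lies on chr9:64737707-64738006 (minus strand) and is shown because Rab11a and Rab11b went apart. Capitals mark a gamma-activated site at -199 and a kappa-B match at -21.
Rab11a: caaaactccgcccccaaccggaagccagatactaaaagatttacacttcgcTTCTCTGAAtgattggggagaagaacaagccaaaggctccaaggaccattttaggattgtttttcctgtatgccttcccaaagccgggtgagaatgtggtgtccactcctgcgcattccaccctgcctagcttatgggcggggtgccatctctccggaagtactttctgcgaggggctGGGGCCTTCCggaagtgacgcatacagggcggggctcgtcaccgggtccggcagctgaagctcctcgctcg

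Rab8a and Rab8b, which carry recycling and exocytic cargo to the cell surface, split in the same manner. Rab8a had 106, 121, 86.2 and 120 CPM in exposed day 5 libraries and 142, 136, 144 and 139 CPM in uninfected day 5 libraries (log2 fold change -0.37, adjusted p = 0.00252). Rab8b had 207, 243, 162 and 223 CPM in exposed day 5 libraries and 174, 156, 161 and 152 CPM in uninfected day 5 libraries (log2 fold change 0.38, adjusted p = 0.00321). The Rab8a groups did not overlap, while the Rab8b groups overlapped through exposed replicate 3, with 162 CPM. Rab35, of rapid recycling at the plasma membrane, was lower with 58.1, 65.4, 46.5 and 66.6 CPM in exposed libraries and 77.3, 79, 77.7 and 67.9 CPM in uninfected libraries at day 5 (log2 fold change -0.35, adjusted p = 0.00341).

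Rab10, of recycling and exocytosis, had 126, 146, 89.1 and 143 CPM in exposed libraries and 100, 102, 110 and 96.3 CPM in uninfected libraries at day 5 (log2 fold change 0.30, adjusted p = 0.029). Exposed replicate 3 lay below the uninfected range. The day 5 call ended without exposed day 5 replicate 2 or 4 or uninfected day 5 replicate 1, 2 or 4 (adjusted p 0.0577 to 0.102). It was not made on the libraries of the 2 groups alone either. Rab13, of recycling to cell junctions, was much less abundant, at 3.52, 4.03, 3.25 and 3.05 CPM in exposed libraries and 2.36, 2.33, 2.67 and 2.34 CPM in uninfected libraries at day 5 (log2 fold change 0.51, adjusted p = 0.00915). Rab4b, of fast recycling, had 0.961 to 1.33 CPM in exposed libraries and 0.673 to 1.24 CPM in uninfected libraries at day 5 (adjusted p = 0.508), and 65% of its exon bases are shared on the same strand with another annotated transcript.

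Rab15, a recycling endosome GTPase best known from nervous tissue, had the highest day 5 log2 fold change of the 42 but few counts. It had 1.83, 2.56, 1.17 and 2.81 CPM in exposed day 5 libraries, 536 counts in all, and 0.152, 0.295, 0.152 and 0.122 CPM in uninfected day 5 libraries, 51 counts in all (log2 fold change 3.53, SE 0.34, adjusted p = 4.19e-08). At day 1 it had 0.266, 0.235, 0.117 and 0.206 CPM in exposed libraries and 0.0753, 0.112, 0.109 and 0.0905 CPM in uninfected libraries, where it did not pass the test (log2 fold change 1.09, adjusted p = 0.0585). Since it met the level rule only through exposed day 5, the difference describes how it was chosen as well as the cells.

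Because same-numbered Rab genes share a library, their ratio within a library does not depend on library size. The 8 pairs below were chosen after their values were seen and carry no test. At day 5 the ratio of Rab11a to Rab11b counts was 0.677 to 1.11 in exposed libraries and 0.388 to 0.504 in uninfected libraries. The Rab8a to Rab8b ratio was 0.5 to 0.539 in exposed libraries and 0.819 to 0.915 in uninfected libraries. The Rab5a to Rab5c ratio was 0.183 to 0.237 in exposed libraries and 0.112 to 0.133 in uninfected libraries. All of these ranges lay apart. The ratio of Rab2a to Rab2b was lower in exposed libraries, at 6 to 9.66 against 10.8 to 12.7 in uninfected libraries. That of Rab5b to Rab5c overlapped, at 0.35 to 0.411 in exposed libraries and 0.321 to 0.358 in uninfected libraries. In 7 of 8 pairs the day 5 groups did not overlap, and in 6 of 8 the day 1 groups did not. Of single genes, 46.6% did not overlap at day 5 and 39.3% at day 1, and the share over all gene pairs was not computed.

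**Figure D3:**
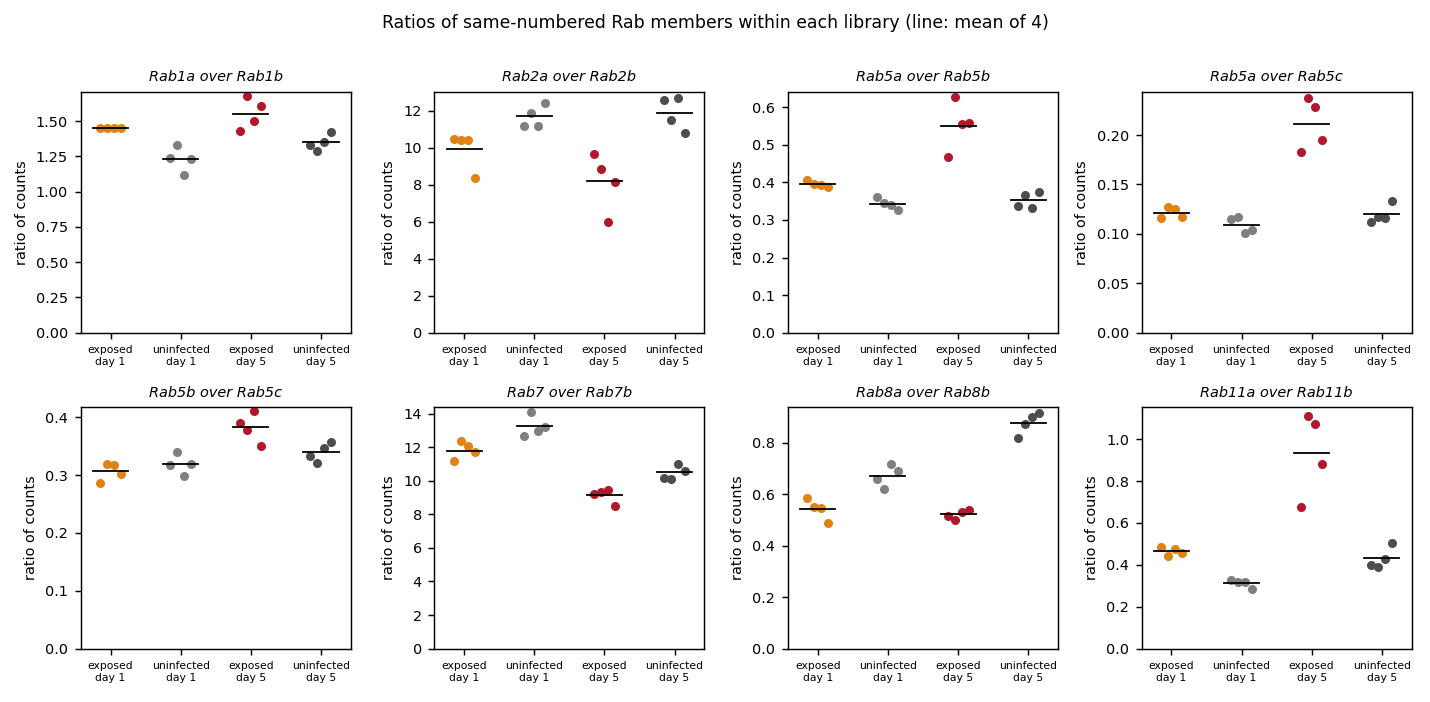
Ratio of counts of 8 pairs of same-numbered Rab genes in each library, with the mean of each group as a line. At day 5 Rab11a over Rab11b and Rab5a over Rab5c stand higher in exposed libraries, and Rab8a over Rab8b stands lower at 0.5 to 0.539.

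Of the 4 secretory genes, 1 was higher and 3 were lower at day 5, each by at least 1.5-fold. Of all genes, 20.1% were called higher and 16.4% lower by that much. None of the 4 was called at day 1. Rab27a, which docks secretory granules and exosome-producing endosomes, was higher, with 3.64, 2.68, 2.37 and 2.88 CPM in exposed day 5 libraries and 1, 0.9, 1.09 and 1.27 CPM in uninfected day 5 libraries (log2 fold change 1.44, SE 0.19, adjusted p = 2.58e-06). Rab37, of mast cell granule and cytokine secretion, was lower, with 0.522, 0.393, 0.646 and 0.173 CPM in exposed day 5 libraries and 1.66, 1.97, 3.16 and 3.19 CPM in uninfected day 5 libraries (log2 fold change -2.52, SE 0.32, adjusted p = 1.72e-06). Neither overlapped between groups, and both are low genes. Uninfected cells themselves had less Rab27a and more Rab37 at day 5 than at day 1. At day 1 the groups of both overlapped and neither passed the test.

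Rab3d, a GTPase of regulated exocytosis, was lower with 95.3, 93, 79.4 and 86.4 CPM in exposed libraries and 127, 130, 144 and 131 CPM in uninfected libraries at day 5 (log2 fold change -0.59, adjusted p = 3.98e-06). Rab44, a large Rab of immune cells linked to degranulation, had 65.9, 42.5, 103 and 50.2 CPM in exposed libraries and 116, 127, 103 and 129 CPM in uninfected libraries at day 5 (log2 fold change -0.86, adjusted p = 0.00221). Exposed replicate 3 of Rab44 reached the uninfected range.

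Among ER and Golgi genes 1 of 9 was higher and 3 were lower at day 5, against 28.6% and 28.4% of all genes. None of the 4 had a fold of 1.5. Of these, Rab19 changed direction between days. It was higher at day 1, with 14.8, 15.1, 11.4 and 11.7 CPM in exposed and 9.68, 10.1, 9.39 and 9.23 CPM in uninfected libraries (log2 fold change 0.47, adjusted p = 0.00607). It was lower at day 5, with 6.8, 5.23, 7.31 and 5.72 CPM in exposed and 8.58, 8.66, 8.51 and 8.52 CPM in uninfected libraries (log2 fold change -0.45, adjusted p = 0.00244). The turn was -0.92 on the log2 scale (adjusted p = 0.000244). Rab24, linked to autophagy, turned the same way, by -0.67 (adjusted p = 0.000191), from values of 71.3 ± 7.9 CPM in exposed and 54 ± 2.86 CPM in uninfected cells at day 1 and 66.9 ± 5.56 CPM in exposed and 80.5 ± 1.42 CPM in uninfected cells at day 5 (SD, n = 4 each; edgeR). Opposite-strand exons cover 62.4% of Rab24. The other 2 lower genes were Rab1b (log2 fold change -0.39, adjusted p = 0.00197) and Rab18 (log2 fold change -0.36, adjusted p = 0.0106). The log2 fold change of Rab18 was -0.23 without exposed day 5 replicate 3, and its call was not made on the libraries of the 2 groups alone. The higher one was Rab2b (log2 fold change 0.52, adjusted p = 6.21e-05). An opposite-strand transcript covers 59.3% of the exon bases of Rab2b.

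The change in the exposure effect between days was then tested directly. It was called for 12 of 42 Rab genes, 7 higher and 5 lower at day 5, against 16.4% higher and 19.5% lower of all genes tested. Over the 39 genes that reached 1 CPM in every group the counts were 6 higher and 4 lower. Those higher were Rab38, Rab20, Rab12, Rab15, Rab27a, Rab10 and Rab2b, and those lower were Rab37, Rab44, Rab19, Rab24 and Rab3d. Without exposed day 5 replicate 3, 13 were called higher. The call of Rab10 ended without exposed day 1 replicate 1 or 4, exposed day 5 replicate 2 or 4, uninfected day 1 replicate 1, 2 or 4, or uninfected day 5 replicate 1, 2 or 4 (adjusted p 0.0538 to 0.0787), and with the replicate block (adjusted p = 0.0533). That of Rab2b ended without exposed day 1 replicate 1 or 3, exposed day 5 replicate 4, uninfected day 1 replicate 1 or 3, or uninfected day 5 replicate 1 or 3 (adjusted p 0.0511 to 0.066). A fit without the filter on low counts did not make the Rab2b call either.

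Uninfected cells were compared between days to give the change with time in culture. There 5 Rab genes were higher and 3 lower at day 5 than at day 1, against 10.8% higher and 8.91% lower of all genes tested. The largest was Rab37, with 1.66, 1.97, 3.16 and 3.19 CPM at day 5 and 1.03, 1.35, 0.814 and 0.886 CPM at day 1 (log2 fold change 1.28, adjusted p = 0.00524). Rab24 was higher (log2 fold change 0.58, adjusted p = 6.77e-05), as was Rab31 (log2 fold change 0.34, adjusted p = 0.0091), and Rab20 and Rab8b were lower (log2 fold change -0.37, adjusted p = 0.0129 for Rab8b). Rab27a fell most of those called lower (log2 fold change -0.71, adjusted p = 0.0125), a call that ended without uninfected day 1 replicate 4 (-0.57, adjusted p = 0.0613). The number called higher was 3 without uninfected day 1 replicate 1, 3 or 4 or uninfected day 5 replicate 3 or 4, and 8 without exposed day 5 replicate 3, when 5 were lower. In exposed cells 13 Rab genes were higher and 10 lower at day 5 than at day 1, against 25.6% and 25.2% of all genes. This last comparison contains the time in culture, and it shares its samples with those above. Rab19 had the smallest adjusted p among the genes that fell in it (log2 fold change -1.08, adjusted p = 3.23e-07).

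The proteins that load, activate, inactivate and read Rabs were counted from 4 lists with 118 genes, 116 of them tested. At day 1, 7 were higher and 19 lower in exposed cells, against 13.4% and 10.5% of all genes, and at day 5, 36 were higher and 33 lower, against 28.6% and 28.4%. The median log2 fold change over the 116 genes was -0.03 at day 1 and 0.04 at day 5. The day 1 counts leaned on single libraries and on which groups were in the fit. They were 3 higher and 10 lower without exposed day 1 replicate 4, 12 lower without uninfected day 1 replicate 1 or 4, and 11 and 13 higher without exposed day 5 replicate 2 and 3. On the libraries of the 2 day 1 groups alone, 19 were higher and 33 lower. Without both exposed day 5 replicates 2 and 3, 14 were higher and 30 lower.

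Of 8 escort and GDI genes, 4 were higher and 2 lower at day 5, against 28.6% and 28.4% of all genes. Gdi2, the general GDP dissociation inhibitor, averaged 343 ± 40.1 CPM in exposed cells and 506 ± 30.8 CPM in uninfected cells at day 5 (SD, n = 4 each; edgeR log2 fold change -0.56, adjusted p = 5.66e-05). Chml, a Rab escort protein, was lower as well (-0.37, adjusted p = 0.00252). Rabggta, a subunit of the enzyme that attaches the lipid anchor to Rabs, was higher (0.42, adjusted p = 0.000905), as was the prenylated Rab acceptor Rabac1 (0.39, adjusted p = 0.00582). At day 1 Rabggta was higher too (0.34, adjusted p = 0.014), a call that ended without exposed day 1 replicate 4 (adjusted p = 0.0583).

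Of 32 GEF genes, 12 were higher and 7 lower at day 5, against 28.6% and 28.4% of all genes. Dennd3, the GEF of Rab12, had 260, 307, 247 and 319 CPM in exposed day 5 libraries and 90.8, 94, 77 and 86.3 CPM in uninfected day 5 libraries (log2 fold change 1.70, adjusted p = 3.34e-11). Rab12 was higher at day 5 as well. Rab35, by contrast, was lower at day 5 while its GEF Dennd1a was higher. A link within these pairs was not tested. Dennd2d, whose human form acts on Rab9, averaged 46.2 ± 4.95 CPM in exposed cells and 22.7 ± 1.08 CPM in uninfected cells at day 5 (SD, n = 4 each; edgeR log2 fold change 1.02, adjusted p = 2.13e-09). Dennd4a, whose human form acts on Rab10, averaged 39.8 ± 6.42 CPM in exposed cells and 20.7 ± 0.84 CPM in uninfected cells at day 5 (SD, n = 4 each; edgeR log2 fold change 0.95, adjusted p = 6.87e-08). The exchange factor Rab3il1 was lower, with 10.7, 6.13, 9.54 and 5.12 CPM in exposed day 5 libraries and 49.4, 51, 43.8 and 39.6 CPM in uninfected day 5 libraries (log2 fold change -2.54, adjusted p = 7.07e-10). Dennd1a, a GEF of Rab35, was lower at day 1 (-0.43, adjusted p = 0.000586) and higher at day 5 (0.52, adjusted p = 1.34e-05), and the difference of 0.95 between days was called (adjusted p = 3.42e-06). At day 1 Dennd4c was also lower (-0.43, adjusted p = 0.0028), while Dennd3 (0.35, adjusted p = 0.0125) and Dennd5b (0.84, adjusted p = 0.013) were higher until exposed day 1 replicate 4 was left out (adjusted p = 0.0575 and 0.0658).

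Of 29 GAP genes, 8 were higher and 9 lower at day 5, against 28.6% and 28.4% of all genes. Tbc1d9 averaged 112 ± 43.1 CPM in exposed cells and 38.4 ± 1.91 CPM in uninfected cells at day 5 (SD, n = 4 each; edgeR log2 fold change 1.54, adjusted p = 2e-06). Tbc1d14, which binds Rab11 and slows autophagy, and Tbc1d4, a GAP of Rab10, were both lower, each by 0.71 on the log2 scale (adjusted p = 3.86e-08 and 1.22e-06). Sgsm2, a GAP of Rab32, was higher (0.58, adjusted p = 5.7e-06). At day 1 Tbc1d10a, a GAP of Rab27a and Rab35, was higher (0.57, adjusted p = 1.8e-05) and Tbc1d15, a GAP of Rab7, was lower (-0.36, adjusted p = 0.0117). Usp6nl, a GAP of Rab5, was lower at day 1 by 0.39 (adjusted p = 0.0205) and Tbc1d22a by 0.36 (adjusted p = 0.0247). The call of Usp6nl ended without exposed day 1 replicate 1, 3 or 4 or uninfected day 1 replicate 1 or 4 (adjusted p 0.0516 to 0.0646). That of Tbc1d22a ended without exposed day 1 replicate 4 or uninfected day 1 replicate 1, 3 or 4 (adjusted p 0.0534 to 0.0933).

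Of 47 effectors and tethers, 12 were higher and 15 lower at day 5, against 28.6% and 28.4% of all genes. Lrrk2, the kinase that phosphorylates several Rabs, had 270, 349, 243 and 332 CPM in exposed day 5 libraries and 85.7, 86.4, 83 and 73.2 CPM in uninfected day 5 libraries (log2 fold change 1.86, adjusted p = 1.99e-11). Effectors of Rab11 split. Rab11fip4 had 13.8, 11.9, 12.6 and 12.9 CPM in exposed day 5 libraries and 2.53, 2.5, 2.26 and 2.08 CPM in uninfected day 5 libraries (log2 fold change 2.45, adjusted p = 8.28e-12), while Rab11fip5 averaged 48.5 ± 1.82 CPM in exposed cells and 99.5 ± 4.48 CPM in uninfected cells at day 5 (SD, n = 4 each; edgeR log2 fold change -1.04, adjusted p = 1.06e-10). Mlph, the adaptor between Rab27a and myosin, had 41.8, 34.6, 43.8 and 30.7 CPM in exposed day 5 libraries and 94.1, 94.6, 91.9 and 91.5 CPM in uninfected day 5 libraries (log2 fold change -1.30, adjusted p = 3.62e-10), the opposite direction to Rab27a itself. At day 1, 1 effector was higher and 9 lower, against 13.4% and 10.5% of all genes. Those lower included Rab11fip5 (-0.53, adjusted p = 7.7e-06), the Rab7 effector Plekhm1 (-0.39, adjusted p = 0.000445), the Rab5 effector Appl1 (-0.32, adjusted p = 0.00291) and the Rab6 effector Bicd2 (-0.25, adjusted p = 0.00796).

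**Figure D4:**
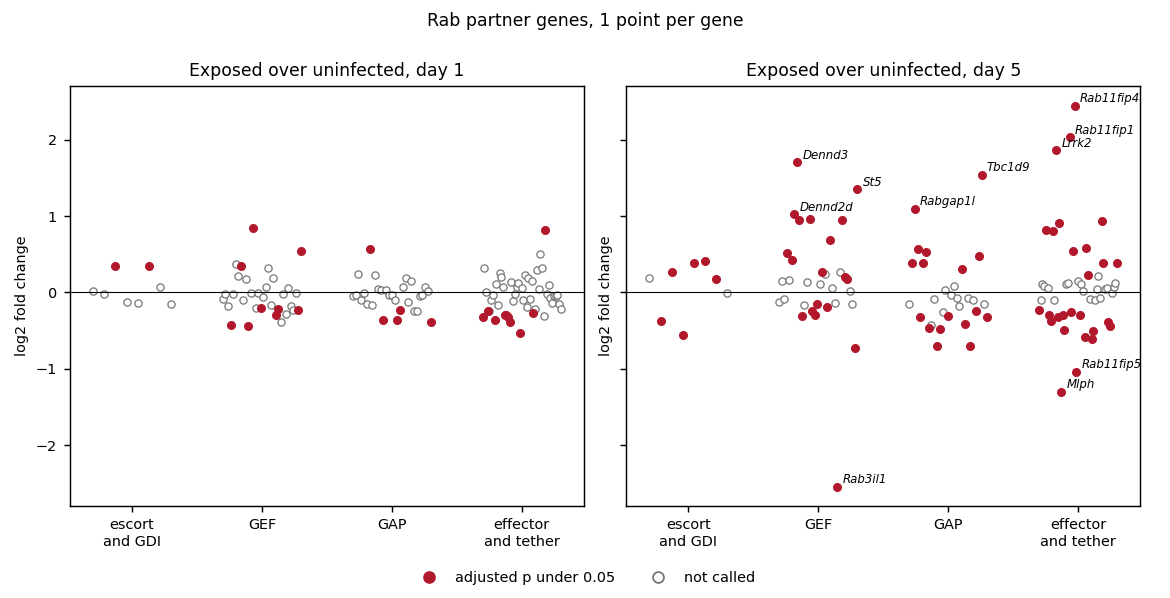
Log2 fold change of the 116 tested Rab partner genes in exposed over uninfected cells at day 1 (left) and day 5 (right), 1 point a gene, by list and filled where the adjusted p was under 0.05. At day 5 Rab11fip4, Lrrk2 and Dennd3 stand highest among the genes given in the text and Rab3il1 lowest, at -2.54.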

How the data were processed

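Poly(A) RNA-seq of 16 MPI-2 libraries, 4 per group, was analysed. STAR and GRCm39 are named in the submitters' processing notes, with program version and annotation release not given in the sources used here. Raw whole-number counts of each gene were deposited by the authors, and the file names mark them as reverse-stranded. Symbols came from GENCODE M21 for 52083 of 55359 genes, and the genes without one held 0.449% of counts. How reads shared by close Rab paralogs were assigned is not stated, which limits counts of single paralogs.

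Genes were filtered with filterByExpr by group (17190 kept), scaled by TMM and fitted with edgeR 4.0.16 (R 4.3.3), quasi-likelihood with robust dispersion, with 1 mean per group over all 16 libraries. Tests were two-sided, and p-values were Benjamini-Hochberg adjusted over all genes tested and called under 0.05. The common biological coefficient of variation was 0.149. CPM are TMM-scaled counts. The script was tested on simulated data. Members and lists were chosen with earlier results of these data known. Every early, late and recycling endosome gene was named, other Rab genes by a fold of at least 1.5, and up to 4 partner genes per list and day by the smallest p. Rab19, Rab24, Rab1b, Rab18 and Rab2b, outside that rule, were named after their values were seen. Dennd2b and Dennd10 were found under the symbols St5 and Fam45a. Sytl2 and Myrip did not pass the filter. Alternatives were DESeq2 1.42.0, RLE size factors, other filters, leave-one-out fits, the replicate block and fits on 2 groups only. Another dropped exposed day 5 replicates 2 and 3, whose sample code is of another series. Replicates 1 and 2, or 3 and 4, were also fitted alone. Figures were drawn with matplotlib 3.10.9. A partner gene that the rule takes at day 1 is not reported here.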

Additional observations from a re-analysis of the deposited data

Results flagged for a closer look

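The exposure effect differed between days by a test of the difference (edgeR interaction, adjusted p under 0.05, day 5 minus day 1 on the log2 scale) for 12 Rab genes. The difference was 2.44 for Rab15, 1.23 for Rab27a, 1.21 for Rab38, 0.81 for Rab20, 0.47 for Rab12, 0.45 for Rab10 and 0.38 for Rab2b. Rab15 met the level rule only through exposed day 5, so its difference follows from how it was chosen. It was -2.56 for Rab37, -1.23 for Rab44, -0.92 for Rab19, -0.67 for Rab24 and -0.46 for Rab3d.

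Single libraries stood apart from the other 3 of their group, with a gap that passed Dixon's critical value, in 11 of 168 groups, where chance alone flags about 1 in 20, or 8.4. In exposed day 1 cells replicate 4 was low for Rab8a (104 CPM, the others 127 to 129), Rab3d (91.1, the others 110 to 114) and Rab5a (41.2, the others 50.5 to 52.2). In uninfected day 5 cells replicate 4 was low for Rab1b (198, the others 231 to 235), Rab35 (67.9, the others 77.3 to 79) and Rab21 (88.5, the others 92.3 to 92.7) and high for Rab43 (1.85, the others 1.22 to 1.31), and replicate 3 was high for Rab13 (2.67, the others 2.33 to 2.36). In uninfected day 1 cells replicate 2 was low for Rab13 (1.58, the others 2.44 to 2.61) and Rab4b (0.572, the others 0.778 to 0.814), and replicate 4 was high for Rab21 (95.1, the others 87.4 to 88.5).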

How the results depend on the processing

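The number of Rab genes that met the level rule was 42 on raw library totals too, 43 with 1 library at 1 CPM and 38 with all 16. No called Rab gene changed sign under 25 alternatives. Replicates 3 and 4 alone gave 1 higher and 0 lower (day 1), 7 and 4 (day 5), 1 and 1 (the change between days), 0 and 0 in uninfected cells between days and 6 and 3 in exposed cells between days, with 2 libraries a group. Replicates 1 and 2 alone gave 4 higher and 0 lower at day 1 and 1 and 0 in uninfected cells between days. With the libraries of 2 groups alone 5 were lower at day 1, and 9 higher and 7 lower in uninfected cells between days. Without the exposed day 5 libraries of another code series these were 5, 9 and 6. DESeq2 gave 5 lower, and no filter gave 3 higher, in uninfected cells between days. The cause was not tested. With each library left out, the counts ran from 7 to 9 higher and 1 to 4 lower (day 1), 12 to 19 and 12 to 15 (day 5), 5 to 13 and 5 to 7 (the change between days), 3 to 8 and 2 to 5 in uninfected cells and 9 to 15 and 10 to 12 in exposed cells between days.

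The replicate numbers did not pair the samples, with correlations of same-numbered deviations from -0.151 to 0.148 and a sample best matched by its own number once. With the replicate block the counts were 9 higher and 1 lower (day 1), 16 and 14 (day 5) and 6 and 5 (the change between days). The calls of Rab34 at day 5 (adjusted p = 0.057), Rab10 between days (adjusted p = 0.0533) and Rab20 in exposed cells between days (adjusted p = 0.067) were not made. Calls kept under every setting other than the 2-replicate subsets were 7 of 9 at day 1, 23 of 30 at day 5, 10 of 12 for the change between days, 5 of 8 in uninfected cells and 14 of 23 in exposed cells between days. Below about 1 CPM, as for Rab15 and Rab37, counts limit precision.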
